A study of Mus musculus with 6 samples.

Results

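The genes described here charge transfer RNA and supply the cell with amino acids. They comprise 20 genes of cytosolic aminoacyl-tRNA synthetases, 2 genes of asparagine and proline synthesis (Asns and Aldh18a1), 7 of serine and folate metabolism, 4 amino acid transporters and 3 of the axis of the transcription factor Atf4. They were taken as a list of symbols, and the rule sets no threshold on their values. The list was, however, chosen with earlier results of these data known. Of the 36 symbols, 34 were found among the 8251 genes named on the array, read by 41 of its 12422 non-control probe sets. Dars and Mthfd1 were not matched. Of the 34 genes, 32 reached the detection floor of 142.8 signal units on at least 1 of the 6 arrays. Slc7a1, a carrier of arginine and lysine, and Slc7a11, the cystine carrier, stayed below the floor on all 6 arrays, at 10.3 to 55.2 and 11.1 to 50.1 units, and no difference is given for them.

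The arrays measured RNA from whole uteri of ovariectomised C57Bl/6 female mice, given in the labels as 10 to 11 weeks old, although the housing protocol has mice received at 10 weeks and kept for 3 weeks before use. All groups were ovariectomised 7 days before they were killed. The vehicle group was killed 24 h after an injection of vehicle under the skin, and the estradiol groups 1, 3, 6, 12 or 24 h after an injection of 0.05 µg of estradiol (E2) per mouse. The tissue was pooled before RNA extraction, and the number of mice given, 10, may be that of each group or of all groups. With a single array in each group there is no replicate spread to judge a difference by, and none was tested. Every ratio to vehicle uses the same vehicle array, and only the 24 h array matches it in time since injection.

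The markers on the array labelled 3 h go against its label of uterus, and it is shown apart throughout, with only 2 of 7 uterine epithelium markers at or above the floor. The homeobox gene Hoxa11, which marks uterine stroma, read 2168 to 2662 units on the other 5 arrays and 14.6 there. The 5 skeletal muscle markers summed to 55384 units there against 406 to 2776 on the others, and the 6 leukocyte markers to 8109 against 1291 to 1873. Its rank correlation with the other arrays across probe sets was 0.843 to 0.857, against 0.929 to 0.968 for the other 10 pairs. On those 5 arrays the 7 uterine epithelium markers and the 6 smooth muscle markers were all at or above the floor.

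An aminoacyl-tRNA synthetase joins an amino acid to its transfer RNA, and the supply of charged transfer RNA limits how fast ribosomes can work. Serine, made from a glycolytic intermediate by Phgdh, Psat1 and Psph, feeds the folate cycle through the hydroxymethyltransferases Shmt1 and Shmt2, and Mthfd2 carries the folate-bound carbon onward in mitochondria. Atf4 is a transcription factor whose translation increases when amino acids are short or the endoplasmic reticulum is stressed. Its known targets include Asns, several synthetases, transporters, and its own partner and antagonist genes Ddit3 and Trib3. Estradiol is known to make the regressed uterus grow, with a large increase in protein synthesis.

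At 6 h after estradiol, 19 of the 32 measured genes were at least 2-fold above vehicle and none was 2-fold below. Among all 6562 measured genes, 6.34% were 2-fold above vehicle at 6 h and 8.35% below. Because the list was chosen with earlier results of these data known, the shares of all genes describe it and do not test it. At 12 h, 17 of the 32 genes were 2-fold above vehicle, beside 6.16% of all genes, and none was below, beside 6.93%. All of these 17 were among the 19 of 6 h. At 24 h, 3 genes were 2-fold above, beside 3.41% of all genes, and 1 was below, beside 3.54%. At 1 h none of the 32 differed from vehicle by 2-fold, beside 0.853% of all genes above and 0.351% below. The median log2 ratio to vehicle over the 32 genes was -0.01, 1.11, 1.10 and 0.35 on the arrays of 1, 6, 12 and 24 h, while that over all measured genes was 0.00 at each of these times. In 24 of the 32 genes the 6 h and the 12 h signal both lay above those of vehicle, 1 h and 24 h, an order seen in 19.3% of all genes. In bulk tissue, more RNA per cell and more cells of the type that holds it cannot be told apart.

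**Figure D1:**
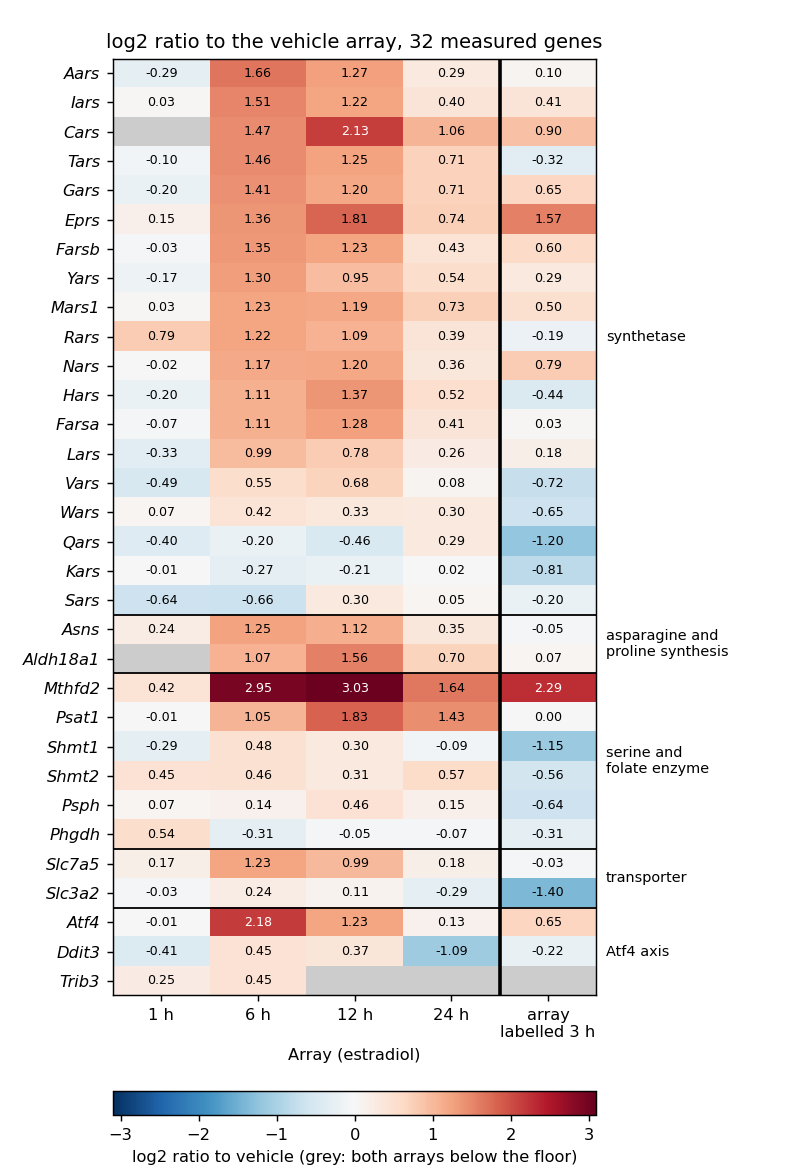
log2 ratio to the vehicle array of the 32 measured genes (rows, by role) at each estradiol time (columns), 1 array per group, with grey where both arrays lay below the floor. The 6 h and 12 h columns are red for most synthetases and for Mthfd2, Atf4 and Psat1, the 24 h column is paler, and Qars, Kars and Sars stay near 0 or below at 6 h.

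**Figure D2:**
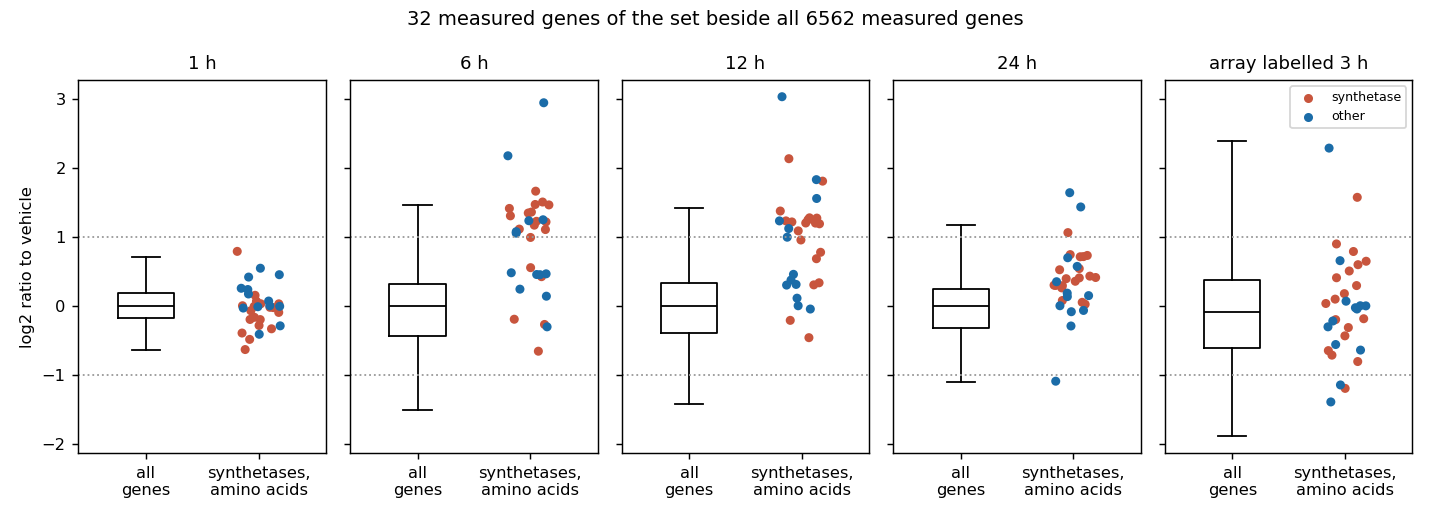
log2 ratio to vehicle on each estradiol array, as a box for all 6562 measured genes (median, quartiles and whiskers at percentiles 2.5 and 97.5) and as points for the 32 genes, synthetases in red and the others in blue. Genes below the floor on both arrays are drawn at 0, and dotted lines mark 2-fold; 19 points lie above the upper line at 6 h and 17 at 12 h.

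Of the 36 symbols, 28 had an entry in the RefSeq promoter table (build GRCm38.p6, 250 bases before to 50 after the gene's start), and these windows were searched on both strands for the core of the C/EBP-ATF response element to which Atf4 is known to bind. The letters searched were TGATGNAA, or TTNCATCA on the other strand. The core was present in 8 of the 28 genes and in 4.51% of the 27025 genes of the table. The 8 were the synthetase genes Aars, Gars, Iars, Tars and Yars, and Asns, Trib3 and Slc7a11. In Iars, Yars and Trib3 the only match to the core lay after the start. Known Atf4 targets are among the 28 genes, so their share with the core is not independent of the list. Of the 24 genes with both a promoter entry and a measured signal, 6 of the 7 with the core were 2-fold above vehicle at 6 h, with log2 ratios of 0.45 to 1.66. The lowest, of Trib3, is at least 0.45, since its vehicle signal lay below the floor, and was 1.43 with the floor at percentile 20. At 12 h and 24 h Trib3 lay below the floor too, and it counts as under 2-fold. Of the 17 without the core, 8 were 2-fold above vehicle at 6 h, and their log2 ratios ran from -0.66 to 2.95. At 12 h, 5 of the 7 and 8 of the 17 were 2-fold above vehicle, and at 24 h 0 and 2. Mthfd2, Psat1 and Eprs are among the genes without the core in this window that were 2-fold above vehicle. The E-box CACGTG, a site of Myc and related factors, was present in 5 of the 28 genes (Aars, Farsb, Iars, Tars and Aldh18a1) and in 8.09% of all genes. All 5 were 2-fold above vehicle at 6 h and at 12 h. Of the 19 measured genes without the E-box, 9 were so at 6 h and 8 at 12 h, and no difference was tested. Aars, Iars and Tars held both motifs, with the E-box of Tars after the start. A match is a run of letters and not a shown site of binding.

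The following stretches end at the base before the gene's start and are shown because they hold the core, in capitals, 5′ to 3′ on the gene's strand. Aars lies on the plus strand at chr8:111033722-111033841, Gars on the plus strand at chr6:55037911-55038000, Tars on the minus strand at chr15:11399659-11399748, Asns on the minus strand at chr6:7693210-7693299 and Slc7a11 on the minus strand at chr3:50443614-50443703.
Aars: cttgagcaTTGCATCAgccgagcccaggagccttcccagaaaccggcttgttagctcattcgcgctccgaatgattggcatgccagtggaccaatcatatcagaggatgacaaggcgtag
Gars: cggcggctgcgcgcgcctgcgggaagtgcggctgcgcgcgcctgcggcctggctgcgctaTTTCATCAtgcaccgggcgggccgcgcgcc
Tars: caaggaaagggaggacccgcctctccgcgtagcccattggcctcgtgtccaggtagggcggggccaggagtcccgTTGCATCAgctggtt
Asns: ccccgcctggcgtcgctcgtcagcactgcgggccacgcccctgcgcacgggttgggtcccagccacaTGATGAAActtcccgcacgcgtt
Slc7a11: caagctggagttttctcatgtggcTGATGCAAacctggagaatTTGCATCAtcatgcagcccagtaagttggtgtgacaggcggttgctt
Aars, Tars and Slc7a11 share the form TTGCATCA, which Slc7a11 also holds as TGATGCAA, its reverse complement. Asns has TGATGAAA, and Gars has the reverse complement of that form, TTTCATCA. Slc7a11 is shown as the member with 2 matches before its start, and its probe set stayed below the floor.

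The synthetase genes were the largest group, with 19 measured. At 6 h, 13 of them were 2-fold above vehicle, from 2.15-fold (Farsa) to 3.17-fold (Aars) in the 12 whose vehicle signal was above the floor, and at least 2.77-fold in Cars, whose vehicle signal was not. At 12 h, 12 were, from 2.12-fold (Rars) to at least 4.39-fold (Cars). The same 12 genes were 2-fold above vehicle at both times, and the 13th, Yars, was 2.47-fold above at 6 h and 1.94-fold at 12 h. The group's median log2 ratio was -0.07 (1 h), 1.22 (6 h), 1.20 (12 h) and 0.40 (24 h).

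Aars, which charges alanine, read 474 units in vehicle, then 389 (1 h), 1502 (6 h), 1145 (12 h) and 582 (24 h). Signals given in a row below keep this order of arrays. The 6 h and 12 h arrays stood above the other 3, as they did in 16 of the 19 synthetases. Iars, for isoleucine, followed the same course at 806, 822, 2289, 1873 and 1067 units. Tars, for threonine, read 563, 526, 1552, 1336 and 922 units, and Gars, for glycine, 620, 540, 1650, 1425 and 1015. In these 4 genes the highest array was that of 6 h, as it was in 8 of the 13 synthetases that reached 2-fold, and in the other 5 it was that of 12 h.

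Cars, the cysteine enzyme, was below the floor in vehicle and at 1 h (42.0 and 84.5 units) and read 395 at 6 h, 627 at 12 h and 298 at 24 h. It was at least 2.77-fold, 4.39-fold and 2.09-fold above vehicle at these 3 times, and the only synthetase at 2-fold at 24 h. With the floor at percentile 20 its log2 ratio was 3.23 at 6 h and 3.90 at 12 h. Eprs, which charges both glutamate and proline, read 289 units in vehicle, then 321 (1 h), 742 (6 h), 1012 (12 h) and 484 (24 h). Its highest array was also that of 12 h, at 3.50-fold above vehicle. Hars, for histidine, read 293, 255, 633, 759 and 420 units, and was 2.16-fold above vehicle at 6 h and 2.59-fold at 12 h. With the floor at percentile 60, the 6 h log2 ratio was 0.17 for Cars and 0.84 for Hars, both under 2-fold.

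Phenylalanyl-tRNA synthetase is built from 2 kinds of subunit, and the genes of both were above vehicle to a like degree. Farsa, the alpha subunit, read 252 units in vehicle, then 240 (1 h), 542 (6 h), 610 (12 h) and 335 (24 h). Farsb, the beta subunit, read 250, 246, 636, 588 and 337 units. The log2 ratios to vehicle at 6, 12 and 24 h were 1.11, 1.28 and 0.41 for Farsa against 1.35, 1.23 and 0.43 for Farsb. With the floor at percentile 60 they were 0.62 and 0.79 for Farsa and 0.85 and 0.74 for Farsb at 6 and 12 h, under 2-fold.

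Mars1, for methionine, and Nars, for asparagine, were 2.34-fold and 2.25-fold above vehicle at 6 h, and 2.28-fold and 2.30-fold at 12 h. Mars1 read 347, 354, 812, 792 and 576 units, and Nars 515, 507, 1158, 1183 and 658. In both genes the 6 h and 12 h arrays were alike and above the rest. Rars, for arginine, was already 1.73-fold above vehicle at 1 h, reading 677 units in vehicle, 1169 at 1 h, 1573 (6 h), 1437 (12 h) and 888 (24 h). Against the mean of vehicle and 1 h its log2 ratio was 0.82 at 6 h and 0.69 at 12 h, under 2-fold.

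The other 6 synthetases, Lars, Vars, Wars, Kars, Qars and Sars, stayed under 2-fold at 6 h and at 12 h. Lars, for leucine, was just under it at 6 h, with a log2 ratio of 0.99, and read 636, 505, 1265, 1090 and 762 units over the 5 arrays. With all arrays scaled to 1 median its log2 ratio at 6 h was 1.09. Vars, for valine, read 1628, 1160, 2387, 2612 and 1715 units, and Wars, for tryptophan, 922, 966, 1236, 1162 and 1134 by its brightest probe set. A second Wars probe set, able to read several transcripts, had log2 ratios of 0.91 at 6 h and 0.82 at 12 h, and the last of the 3 had 0.28 and -0.41. Yars, for tyrosine, is not among these 6, at 2.47-fold above vehicle at 6 h by its brighter probe set. It read 389, 346, 960, 753 and 565 units there. Its dimmer probe set was highest at 1 h, at 281 units, against 212 at 6 h and under 142.8 in vehicle. With the median of both, the log2 ratio of Yars at 6 h was 0.94.

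Kars, Qars and Sars, for lysine, glutamine and serine, did not share the pattern. Kars read 250 units in vehicle, then 249 (1 h), 207 (6 h), 216 (12 h) and 254 (24 h). Qars read 1723, 1309, 1504, 1250 and 2108 units, so that its 24 h array was the highest and its 12 h array the lowest. Sars read 515, 331, 326, 635 and 533 units, 1.58-fold below vehicle at 6 h and 1.23-fold above at 12 h. At 6 h Qars lay between its vehicle and 1 h signals, and only just above the reference when this was their mean.

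Several synthetases are known to sit together in a multi-synthetase complex, and the group was split by this after its values were seen. Of the 7 measured genes of the complex (Eprs, Iars, Kars, Lars, Mars1, Qars and Rars), 4 were 2-fold above vehicle at 6 h, with a median log2 ratio of 1.22. Of the 12 others 9 were, with a median of 1.24. The complex thus held genes with as much as 1.51 (Iars) and as little as -0.27 (Kars) at 6 h. At 24 h, 19 of the 19 synthetases had a signal above that of vehicle, by a log2 ratio of 0.02 (Kars) to 1.06 (Cars), while 2839 of all 6562 genes did. With the floor at percentile 60, 15 of the 19 were above vehicle at 24 h and 4 were at the floor on both arrays, and against the mean of vehicle and 1 h 18 were above and Rars below.

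Asns, which makes asparagine, read 1254 units in vehicle, then 1476 (1 h), 2978 (6 h), 2727 (12 h) and 1597 (24 h). The 6 h and 12 h arrays were highest, at 2.37-fold and 2.17-fold above vehicle. Its other probe set stayed below the floor, at 12.3 units in vehicle, 121 at 6 h and 139 at 12 h, and with the median of both the log2 ratio of Asns was 0.62 and 0.56 at these times. Aldh18a1, which catalyses the first steps of proline synthesis, was just below the floor in vehicle at 136 units and read 113 at 1 h, 301 (6 h), 420 (12 h) and 231 (24 h). It was at least 2.11-fold above vehicle at 6 h and at least 2.94-fold at 12 h. With the floor at percentile 60 the log2 ratio of Aldh18a1 was 0.00 at 6 h and 0.25 at 12 h.

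Among the 6 measured serine and folate genes, Mthfd2 and Psat1 were 2-fold above vehicle at 6, 12 and 24 h and the other 4 at none of the 5 estradiol arrays. Mthfd2 read 295 units in vehicle, 394 at 1 h, 2273 (6 h), 2416 (12 h) and 920 (24 h). That is 7.70-fold, 8.19-fold and 3.12-fold above vehicle at the last 3 times. A second Mthfd2 probe set stayed below the floor on all arrays, at 4.70 to 18.3 units, and with the median of both probe sets the log2 ratio of Mthfd2 was 1.47 at 6 h, 1.52 at 12 h and 0.82 at 24 h.

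Psat1, the aminotransferase of serine synthesis, was highest at 12 h. It read 627 units in vehicle, then 620 (1 h), 1300 (6 h), 2227 (12 h) and 1692 (24 h). Its ratio to vehicle was 2.08-fold, 3.55-fold and 2.70-fold at the last 3 times, so that the 24 h array stood above that of 6 h. The neighbouring enzymes of the same pathway were under 2-fold on all of these arrays. Psph, which removes the phosphate in the last step, read 505, 530, 556, 693 and 559 units. Phgdh, which begins the pathway, read 177, 257, 99.8, 171 and 168 units, close to the floor, by a probe set whose suffix marks it as made under relaxed rules.

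Shmt2, the mitochondrial hydroxymethyltransferase that precedes Mthfd2, read 587 units in vehicle, then 802 (1 h), 809 (6 h), 728 (12 h) and 872 (24 h). All 4 estradiol arrays were above vehicle, by 1.24-fold to 1.49-fold. Shmt1, its cytosolic counterpart, read 317, 259, 441, 390 and 298 units. A second Shmt1 probe set was at 10.9 to 18.3 units, below the floor.

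Slc7a5 and Slc3a2 encode the light and heavy chains of the LAT1 carrier for large neutral amino acids, and their ratios to vehicle differed in size. Slc7a5 read 1135 units in vehicle, then 1278 (1 h), 2670 (6 h), 2261 (12 h) and 1288 (24 h). It was 2.35-fold above vehicle at 6 h and 1.99-fold at 12 h. Slc3a2, which also serves other light chains, read 2926, 2859, 3458, 3158 and 2387 units, 1.18-fold above vehicle at 6 h and 1.23-fold below at 24 h.

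Atf4 read 1309 units in vehicle, then 1301 (1 h), 5914 (6 h), 3072 (12 h) and 1435 (24 h). It stood 4.52-fold above vehicle at 6 h, 2.35-fold at 12 h and 1.10-fold at 24 h. Ddit3, the stress-induced partner also known as CHOP, read 386, 290, 528, 500 and 181 units. Its 6 h signal was 1.37-fold above vehicle and its 24 h signal 2.14-fold below, the only gene of the 32 that was 2-fold below vehicle at 24 h. With the floor at percentile 60 the log2 ratio of Ddit3 at 24 h was -0.13, and against the mean of vehicle and 1 h it was -0.89. Trib3, a pseudokinase that restrains Atf4, was at or above the floor only at 1 h (170 units) and 6 h (195), against 72.3 in vehicle. That is at least 1.19-fold and at least 1.37-fold.

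**Figure D3:**
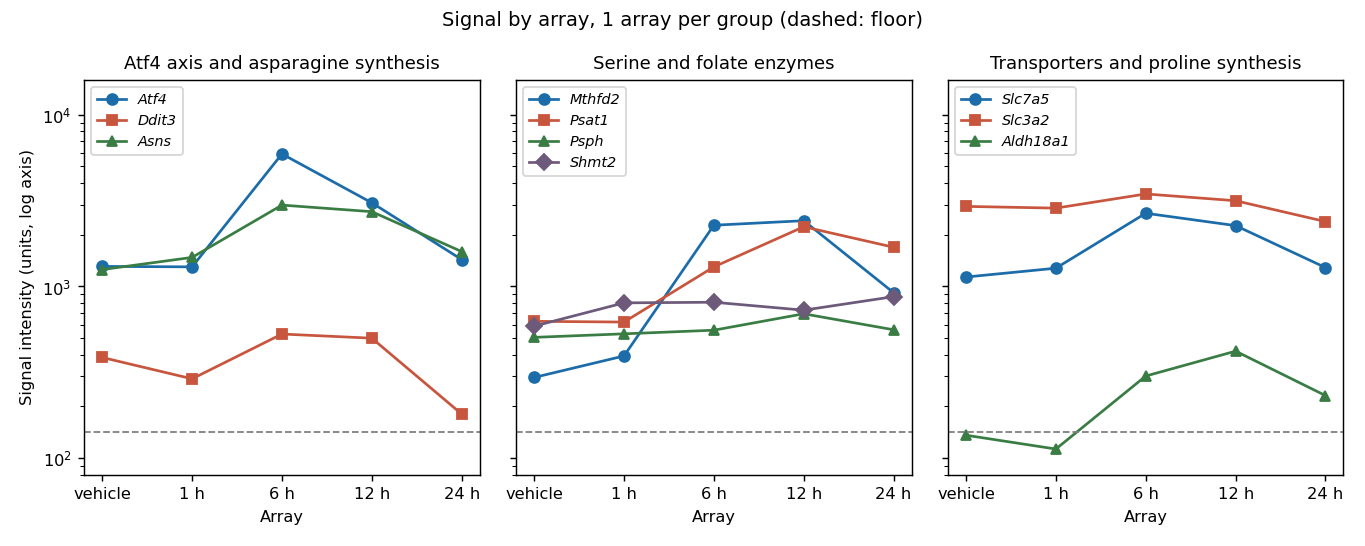
Signal in units on a log axis for vehicle and for 1, 6, 12 and 24 h of estradiol, 1 array per point, with the floor as a dashed line; each line is 1 gene, to be read along the line and not against other genes. Atf4 is highest at 6 h (5914 units), Psat1 and Aldh18a1 at 12 h (2227 and 420), while Slc3a2 (2387 to 3458) and Psph (505 to 693) run nearly flat.

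Between 6 h and 12 h none of the 32 genes differed by 2-fold in either direction, beside 1.65% of all genes higher and 1.33% lower. The largest differences were in Sars (log2 ratio of 12 h over 6 h, 0.96), Atf4 (-0.94), Psat1 (0.78) and Cars (0.66). Of the 19 genes that reached 2-fold at 6 or 12 h, 11 had their highest signal at 6 h and 8 at 12 h. Among the 553 genes of the whole array that reached it, 49.4% were highest at 6 h and 37.1% at 12 h, so the division was near the background.

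From 12 h to 24 h, 28 of the 32 genes were lower, as were 2956 of all 6562, with a median log2 ratio of -0.57 against 0.00 for all genes. Cars, Eprs, Mthfd2, Atf4 and Ddit3 were at least 2-fold lower at 24 h than at 12 h, beside 2.47% of all genes, and none was 2-fold higher, beside 2.88%. Ddit3 had the largest difference (-1.47), then Mthfd2 (-1.39) and Atf4 (-1.10). Qars (0.75), Shmt2 (0.26) and Kars (0.23) were higher at 24 h than at 12 h. These ratios share the 12 h array with those of 12 h over 6 h.

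**Figure D4:**
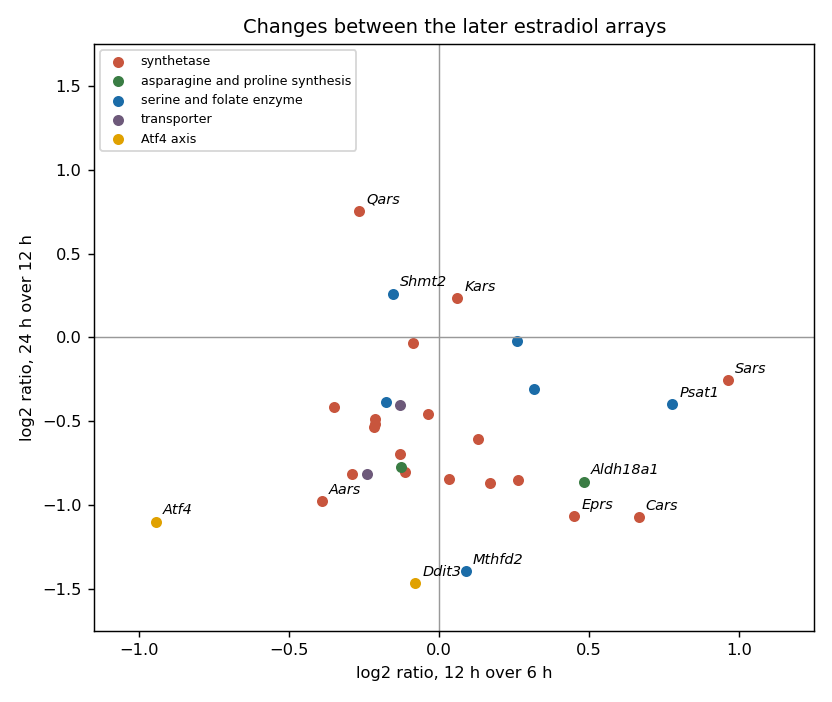
For 31 genes, the log2 ratio of the 12 h to the 6 h array (horizontal) against that of the 24 h to the 12 h array (vertical), coloured by role; the axes share the 12 h array. Most points lie below 0 on the vertical axis, Atf4 lies low on both axes (-0.94 and -1.10), and Psat1 and Cars lie to the right. Trib3 is left out because it was below the floor at 12 h and 24 h.

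Other genes of the same processes were counted from lists. Beside these counts, 6.34%, 6.16% and 3.41% of all measured genes were 2-fold above vehicle at 6, 12 and 24 h. Those 2-fold below were 8.35%, 6.93% and 3.54%. In lists this short, a count of none or 1 is near such shares. Of 8 further folate and glycine enzymes measured, 2 were 2-fold above vehicle at 6 h and none below. Fpgs, which adds glutamate to folates, was 2.91-fold above at 6 h and 2.07-fold at 12 h, and Gart, of purine synthesis, 2.02-fold and 1.84-fold. Gcsh and Ahcy were under 2-fold, at 1.60-fold and 1.46-fold at 6 h. Of 7 genes of the synthetase scaffold and of mitochondrial synthetases, 1 was 2-fold above vehicle at 6 h and none at 12 h. This was Aimp2, a scaffold protein of the complex, at 2.10-fold, while the mitochondrial enzyme genes Iars2 and Fars2 were 1.60-fold and 1.56-fold below at 6 h and Rars2 was 1.06-fold above. Sars2 and Tars2, named after their values were seen, were each 1.17-fold above. Of the cytosolic enzymes for these amino acids, Iars, Farsa, Farsb, Rars and Tars were 2-fold above vehicle at 6 h and Sars was 1.58-fold below, and no difference between the kinds was tested.

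Of 13 other amino acid transporters measured, none was 2-fold above vehicle at 6, 12 or 24 h, which is near the share of all genes. Slc6a6, the taurine carrier, was 2.27-fold below at 6 h and 2.46-fold at 12 h, and Slc7a7, a light chain that also pairs with Slc3a2, 2.69-fold below at 12 h. Slc7a8, a light chain for neutral amino acids, was 1.69-fold below at 6 h, and Slc1a4, for alanine, serine and cysteine, 1.49-fold above. Of 18 other genes of amino acid synthesis and breakdown, 1 was above and 4 below at 6 h. Bckdha, a subunit of the complex that breaks down branched-chain amino acids, was at least 4.16-fold below at 6 h, and Csad, of taurine synthesis, 3.01-fold. The others, named after their values were seen, were Cdo1 (2.36-fold below), Gatm (2.11-fold below) and Bcat1, the cytosolic branched-chain aminotransferase (2.55-fold above). At 24 h Arg1, the arginine-cleaving arginase, was at least 10.9-fold above vehicle and Ido1, a tryptophan-degrading enzyme, at least 2.87-fold. Arg1 was below the floor on all the other arrays.

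Of 19 other genes of the integrated stress response, 5 were 2-fold above vehicle at 6 h, 3 at 12 h and none at 24 h, and none was below at these times. Atf5, a relative of Atf4, read 1305 units in vehicle, then 824 (1 h), 4421 (6 h), 4883 (12 h) and 1250 (24 h), and so was again near vehicle at 24 h, as Atf4 was. Cebpb, a binding partner of Atf4, was 2.78-fold above vehicle at 1 h and 2.36-fold at 6 h, Vegfa 4.57-fold and Ppp1r15b, which restores translation, 2.64-fold at 6 h. The fifth, Eif2b5, was named after its values were seen, at 2.06-fold. Of 18 genes of mTOR signalling and the Myc network, none was 2-fold above vehicle at 6 or 12 h, 3 were below at 6 h and 4 at 12 h. Sesn1, an inhibitor of mTOR signalling, Mxd4 and Mxi1, antagonists of Myc, were 7.02-fold, 6.12-fold and at least 6.34-fold below at 6 h, and Ddit4 was 2.13-fold below at 12 h. Myc itself, named after its values were seen, had a log2 ratio to vehicle of 1.00 at 1 h and 0.99 at 6 h.

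Markers of other cell types were read on the same arrays. Of 7 exocrine pancreas genes found, the summed signal was 4936 units in vehicle and 1250 to 2457 at 1, 6, 12 and 24 h. At 6 h, 4 of the 6 measured were 2-fold below vehicle, beside 8.35% of all genes. Rnase1 was below the floor throughout. The 4 adipocyte markers summed to 10845 units in vehicle and 5674 at 6 h and 3521 at 24 h, the 6 endothelial markers to 3810, 1994 and 2119, and the 8 stromal markers to 34895, 14935 and 21352. The 6 smooth muscle markers summed to 35685, 37528 and 53745 units and the 7 epithelial markers to 9521, 8933 and 13574. Genes within the stromal, endothelial, epithelial and smooth muscle lists did not all move together. At 6 h, 3 stromal markers were 2-fold below vehicle, among them Dcn (23991 units in vehicle and 9206 at 6 h). Pgr was 2-fold above (160 and 870), while Esr1 (527 and 550) and Hoxa11 (2662 and 2168) differed little. Of the endothelial markers, 3 were 2-fold below at 6 h and none above, while Kdr read 186 and 279 units. Among the epithelial markers, Krt18 read 2285 units in vehicle and 1259 at 6 h, and Cldn7 541 and 1098. Among the smooth muscle markers, Actg2 read 2350 units in vehicle and 10119 at 24 h, and Myh11 9706 and 10820. The part of these marker shifts in the ratios above was not tested.

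On the array labelled 3 h, 2 of the 32 genes were 2-fold above vehicle, beside 10.8% of all genes, and 3 below, beside 12.3%. Mthfd2 read 1441 units and Eprs 860 there, 4.88-fold and 2.98-fold above vehicle. Slc3a2, Qars and Shmt1 were 2.63-fold, 2.30-fold and at least 2.22-fold below. Atf4 read 2059 units, 1.57-fold above vehicle, and Psat1 626, equal to vehicle within 1 unit. Since the markers of that array go against its label, these values give no place in the time course.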

How the data were processed

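The deposited table holds 1 signal intensity per probe set and array on a linear scale, made by the authors with MAS5, per the submitters' processing notes (version, background settings and masks not given in the sources used here). From the values, the authors had scaled every array to a 2% trimmed mean of 500.2 to 500.3. Detection calls were not used here. Of 12488 probe sets, 66 controls were left out. The array annotation gave 10833 probe sets 1 symbol, 396 several and 1193 none, and 10817 matched the RefSeq gene table of GRCm38.p6 by gene identifier. Names come only from the first kind.

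Arrays were rescaled to the same trimmed mean, values under percentile 40 of all values (142.8) were raised to it, and log2 was taken. Where several probe sets read a gene, the brightest by mean log2 stood for it. A gene was measured if it reached the floor on at least 1 of 6 arrays. "At least" marks a fold against the floor. A fixed 2-fold difference replaced a test, as 1 array per group gives no estimate of error; precision is limited by their number. Between 58.8% and 61.7% of probe sets reached the floor, and the 3' to 5' ratio was 1.13 to 1.25 for the actin control and 0.793 to 0.892 for Gapdh. The members and lists were chosen with earlier results of these data known. Every member found was named, and from each other list up to 4 genes with the largest difference at 1, 6, 12 or 24 h whose brighter array reached percentile 60 (352.65). The calculation was tested on simulated data. Python 3.11.15, numpy 2.4.6, pandas 2.3.3 and matplotlib 3.10.9 were used. The 8 alternatives covered the floor, the scaling, the probe set, the reference and the array labelled 3 h.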

Additional observations from a re-analysis of the deposited data

Results flagged for a closer look

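Ddit3 lay above vehicle at 6 h (log2 ratio 0.45) and more than 2-fold below it at 24 h (-1.09). The opposite directions at these 2 times drew attention to it; other genes crossed vehicle between times too, such as Aars (-0.29 at 1 h and 1.66 at 6 h). The difference between the times was not tested, since each is 1 array.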

How the results depend on the processing

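The counts above vehicle at 6 and 12 h kept within 1.5 times of those reported under the 8 alternatives, at 14 to 21 genes and 13 to 19 genes. Of all genes, 5.49% to 7.94% and 5.3% to 7.93% were above at these times. The list genes measured were 34 with the lower floor or the pseudocount, 29 with the higher floor and otherwise 32. None of them was 2-fold below at these times under any alternative. Of the 19 genes at 2-fold at 6 h and the 17 at 12 h, 11 and 11 were so under every alternative, and 1 of the 4 at 24 h (Psat1). The higher floor took away most: 14 of the 29 genes then measured were above at 6 h, and Cars, Farsa, Farsb, Hars and Aldh18a1 were lost. Their vehicle signals lie under this floor and their 6 h signals under 2 times it. Eprs, Mars1 and Mthfd2, also under it in vehicle, stayed at 2-fold at 6 h. At 1 h, 2 genes (Cars and Trib3) were above vehicle with the floor at percentile 20 and 1 (Trib3) with a pseudocount of 16. Of all genes, 3.3% and 4.17% were above at 1 h under these settings. Trib3 was also more than 2-fold above vehicle at 6 h under both, with log2 ratios of 1.43 and 1.26. At 24 h, 0 genes were below vehicle with the floor at percentile 60 and 0 against the mean of vehicle and 1 h, beside 2.72% and 2.86% of all genes. On the array labelled 3 h, 5 of 34 genes were below vehicle with the floor at percentile 20 and 5 of 34 with the pseudocount. These are near the 15% and 14.3% of all genes. The median over all probe sets took Asns and Aldh18a1 under 2-fold at 6 and 12 h, and Mthfd2 at 24 h, because a probe set below the floor counts as 0, and Yars at 6 h, whose second probe set had a log2 ratio of 0.57. No reported ratio past 2-fold changed sign. No paired analysis was possible because each group is 1 array.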
